A study of Mus musculus with 12 samples.

Results

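Molecular chaperones bind proteins that are not fully folded and help them reach, or keep, their working shape. HSP70 proteins hold exposed stretches of a client protein in a cycle driven by ATP, J-domain proteins (the Dnaj genes) bring clients and start that cycle, and nucleotide exchange factors such as HSP110 reset it. HSP90 receives clients that are nearly folded, among them kinases and steroid receptors, and the barrel-shaped TRiC/CCT complex folds actin and tubulin. The endoplasmic reticulum (ER) and the mitochondria have HSP70, HSP90 and J-domain chaperones of their own, and small HSPs hold unfolded proteins without using ATP. At synapses the constitutive HSP70, Hspa8, works with the J-domain proteins Dnajc6 (auxilin), to strip clathrin from vesicles, and Dnajc5 (cysteine string protein), to keep vesicle proteins folded.

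The chaperone genes described here were 67 protein-coding genes of the 37310 genes counted. They were chosen by symbol (beginning with Hsp or Dnaj, or Cct2 to Cct8) and by a mean raw count of 10 or more over the 12 libraries. They comprised 23 Hsp, 37 Dnaj and 7 Cct genes. Of 85 protein-coding genes with such a symbol, 17 fell under the mean count, 4 of these with no count in any library, and Dnajc27 was left out by name. The members just inside the threshold were Dnajc25, with a mean count of 10.4, and Hspg2, with 10.9, and the genes just outside it were Hspa12b, with 7.83, and the small HSP gene Hspb1, with 5.67. The symbol is not a function for 4 members. Hspg2 encodes perlecan, a basement membrane proteoglycan, Hspb11 encodes a subunit of the intraflagellar transport complex, Hspbp1 encodes a nucleotide exchange factor of HSP70, and Hspbap1 encodes a protein that binds a small HSP. Conversely Tcp1, the remaining subunit of TRiC/CCT, does not have a matching symbol and is given as a non-member.

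RNA came from ventral hippocampus (vHPC) of C57BL/6 mice that carried the Rosa26 eGFP-L10a allele, a GFP-tagged ribosomal protein made only after Cre recombination. All mice had received a retrograde HSV-Cre vector in the nucleus accumbens (NAc) 3 weeks earlier, so that neurons projecting to NAc were tagged. In the FosB knockout (KO) group the mice were also FosB fl/fl, and the wildtype (WT) group had no floxed FosB, so Cre and the tag were shared by both genotypes. Each genotype had 3 pools of mice, numbered 1, 2 and 3 in WT and 2, 3 and 4 in KO in the labels, which give 3 mice a pool in one field and a range reaching 1 mouse more in another, and no age. Each pool gave a TRAP library (translating ribosome affinity purification, RNA bound to the tagged ribosomes) and an input library (RNA of the whole tissue punch), 12 libraries in 4 groups of 3. Cre came from the virus alone, so FosB could be lost in any neuron reached from NAc and the KO input also held cells with FosB intact. Values are given below in the order of these pool numbers.

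The libraries held 3416030 to 5614089 counts on genes, so that 3 counts corresponded to 0.534 to 0.867 CPM (the count of a gene scaled to the library total with TMM factors). For Fosb, the targeted gene, WT TRAP held 45.2, 32.6 and 40.2 CPM, KO TRAP 29.1, 18.9 and 21.3 CPM, WT input 30.1, 22.2 and 24.3 CPM and KO input 17.0, 16.0 and 14.9 CPM. The KO libraries were the lower ones in both kinds of RNA, although the difference did not pass the edgeR quasi-likelihood F test, with p adjusted by Benjamini-Hochberg over all genes tested, in TRAP (log2 fold change -0.76, adjusted p = 0.337) or input (-0.68, adjusted p = 1). The counts cover the whole gene, so the floxed part was not measured apart and the loss of FosB was not shown by these values. TRAP libraries held little glial RNA. The summed level of 10 astrocyte markers was 337 to 429 CPM in TRAP and 2009 to 2472 CPM in input, that of 10 oligodendrocyte markers 159 to 206 and 715 to 1143 CPM, and that of 10 microglia markers 6.94 to 23.5 and 105 to 215 CPM, with P2ry12 at 0 in every KO TRAP library. All 30 of these markers were lower in TRAP at an adjusted p under 0.05, as were 9 of 10 markers of GABA neurons, while 8 of 9 markers of neurons in general were higher. Of 10 markers of glutamate neurons 5 were higher and 1 lower, of 4 endothelial markers tested 3 were lower, and of 6 ependymal and choroid markers tested 1 was higher and 1 lower. Genes of the mitochondrial genome took 0.0305 to 0.130% of counts in TRAP and 5.29 to 9.05% in input. Among the inputs, WT 1 and KO 3 stood apart: both lay above the other 4 inputs in 10 members (14.9%, against 11.8% of all genes) and below them in 9 (13.4%, against 12.3%), and WT input 1 also had the fewest genes with counts, 15678 against 17255 to 18090 in the other inputs. Among the TRAP libraries KO 2 stood apart in the summed level of the GABA neuron markers, with 647 CPM against 191 and 180 in KO TRAP 3 and 4 and 431, 333 and 291 in WT TRAP, and had the highest mitochondrial share. KO input 4 held 267 CPM of the ependymal and choroid markers, against 21.2 to 86.9 CPM in the other inputs. The pools were separate groups of mice, so p-values measure the spread between pools, and in bulk RNA fewer cells of a type and less RNA per cell cannot be told apart.

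The 67 members together took 1.57 to 1.62% of counts in WT TRAP, 1.46 to 1.58% in KO TRAP, 1.05 to 1.25% in WT input and 1.06 to 1.15% in KO input. The ranges of the TRAP and the input libraries did not overlap, while WT and KO overlapped within each kind. Hsp90ab1, the constitutive cytosolic HSP90, alone supplied 24.9 to 31.6% of member counts. Without it the members took 1.05 to 1.15% in TRAP and 0.792 to 0.866% in input, which again did not overlap.

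Levels per length were compared as CPM per kilobase of exon, averaged over the 12 libraries. Hsp90ab1 led with 1262, followed by Hsp90aa1, the stress-inducible cytosolic HSP90, with 355, and Hspa8 with 269. The first chaperonin subunit was Cct7 with 127, followed by Cct6a with 99.0 and Cct2 with 93.2. The HSP70-related Hspa12a stood at 91.9 and Dnaja2, a cytosolic partner of HSP70, at 91.0, which put the leading J-domain protein below the leading HSP70 by a wide margin. Dnajc8, a nuclear J protein, stood at 82.1, Dnajc15, a J protein of the mitochondrial inner membrane, at 78.5 and mitochondrial HSP70, Hspa9, at 78.2. Hspg2 was the lowest member, at 0.179. The first 3 kept this order in each of the 12 libraries, although Hsp90aa1 and Hspa8 were nearly level in KO TRAP 2 and KO input 2, whereas neighbours lower in the order, such as Cct7 and Cct6a or Hspa12a and Dnaja2, changed places between libraries, Cct6a lying above Cct7 in WT input 2. On the mm9 build of the counts, Hsp90ab1 (ENSMUSG00000023944.8) lies at chr17:45704724-45710220, Hsp90aa1 at chr12:111928815-111940938, Hspa8 at chr9:40609067-40613283, Hsph1 at chr5:150416862-150438951, Cct7 at chr6:85401499-85418471, Dnajc1 at chr2:18117281-18314457 and Hspb8 at chr5:116858500-116872873. All these values are whole-gene counts over exons. The levels are plotted against the ratio of TRAP to input in the plot of level and ratio.

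Promoter sequence is shown for some of the members whose windows hold motifs of the heat shock and ER stress pathways, by which genes are grouped in the results that follow. Windows of 250 bases before a gene's start came from RefSeq (mouse build GRCm38.p6, not the mm9 build of the counts) and existed for 55 of the 67 members (74 windows). The 12 members without a window, among them Hsp90aa1, Hsp90ab1 and Hspa8, were not searched. The heat shock element, bound by the factor Hsf1, was searched on both strands as a pair of facing units, GAANNTTC or TTCNNGAA. It was found in 13 of 55 members (23.6%), against 14.5% of 27025 genes and 12.8% of all 32851 windows. A run of 3 or more such units, alternating GAA and TTC with 2 bases between them, which contains the pair, was found in 3 members (5.45%), against 0.514% of genes and 0.466% of windows. These were Dnajb6 and the pair Hspd1 and Hspe1, which start from a shared region in opposite directions. The ER stress element, searched on both strands as CCAAT followed after 9 bases by CCACG, was found in 3 members (5.45%), against 0.13% of genes and 0.113% of windows, and the 3 were the ER chaperones Hspa5, Hsp90b1 and Dnajc3. The site of Fos and Jun proteins, TGANTCA, was found in 2 members (3.64%), Cct5 and Hspa5, against 7.82% of genes and 6.75% of windows. A match describes letters and not binding. The stretches below run 5′ to 3′ on the gene's strand, with the motif in capitals. The first 4 lines hold heat shock elements, of the inducible HSP70 genes, of Hsph1, which had the lowest p between genotypes in TRAP, and of the longer runs, with 4 units in Hspe1, whose stretch also lies in the window of Hspd1, and 3 in Dnajb6. The other members with the pair, which are not printed, were Cct2, Cct5, Dnaja1, Dnaja4, Dnajb4, Dnajc10 and Hspb6. The last 4 lines hold every ER stress element found, 1 of them in reverse complement.
Hspa1a, inducible HSP70, chr17:34972228-34972285, minus strand (Hspa1b, its near-copy, has the same letters at chr17:34959310-34959367, minus strand): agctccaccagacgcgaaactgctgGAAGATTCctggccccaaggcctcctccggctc
Hsph1, HSP110, chr5:149636337-149636394, minus strand: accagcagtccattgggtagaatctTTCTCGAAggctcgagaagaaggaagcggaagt
Hspe1, mitochondrial co-chaperonin, chr1:55088054-55088081, plus strand: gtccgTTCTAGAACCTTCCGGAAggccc
Dnajb6, cytosolic J protein, chr5:29735847-29735869, plus strand: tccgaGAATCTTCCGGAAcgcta
Hspa5, ER HSP70 (BiP), chr2:34772005-34772063, plus strand: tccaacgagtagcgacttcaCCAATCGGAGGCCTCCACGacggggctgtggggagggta
Hsp90b1, ER HSP90 (Grp94), chr10:86705623-86705671, minus strand: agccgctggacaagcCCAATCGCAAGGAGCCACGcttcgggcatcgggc
Hsp90b1, second stretch, reverse complement, chr10:86705518-86705566, minus strand: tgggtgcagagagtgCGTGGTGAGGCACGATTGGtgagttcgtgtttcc
Dnajc3, ER J protein, chr14:118937812-118937860, plus strand: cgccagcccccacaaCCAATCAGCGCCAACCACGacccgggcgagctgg

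The first comparison asked which chaperone mRNAs were richer on the ribosomes of NAc-projecting neurons than in the whole punch. Over both genotypes, 35 of the 67 members were higher in TRAP (52.2%, against 19.6% of 13214 genes tested) and 5 were lower (7.46%, against 22.5%), at an adjusted p under 0.05 in edgeR. The median log2 fold change was 0.28 over the members and -0.01 over all genes tested. All 6 TRAP libraries lay above all 6 inputs in 21 members (31.3%, against 10% of genes) and below them in 2 (2.99%, against 12.5%), Hspb8 and Dnajc1. The ratio within a pool was above 0 in 6 of 6 pools for 29 members (43.3%, against 18.6%) and below 0 in 6 of 6 for 2 (2.99%, against 20.2%). The glial and neuronal markers given above moved between TRAP and input too, and their part in these differences was not tested. Without the pools WT 1 and KO 3, whose inputs stood apart, 33 members were higher (against 20.1% of all genes) and 3 lower, and the median was 0.27. Without the pool KO 2, 32 members were higher (against 16.8% of all genes) and 4 lower. Of the 40 members called, 31 passed in the same direction in each of 13 alternative fits, 29 of them higher, with Dnajc1 and Hspb8 lower.

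**Figure D1:**
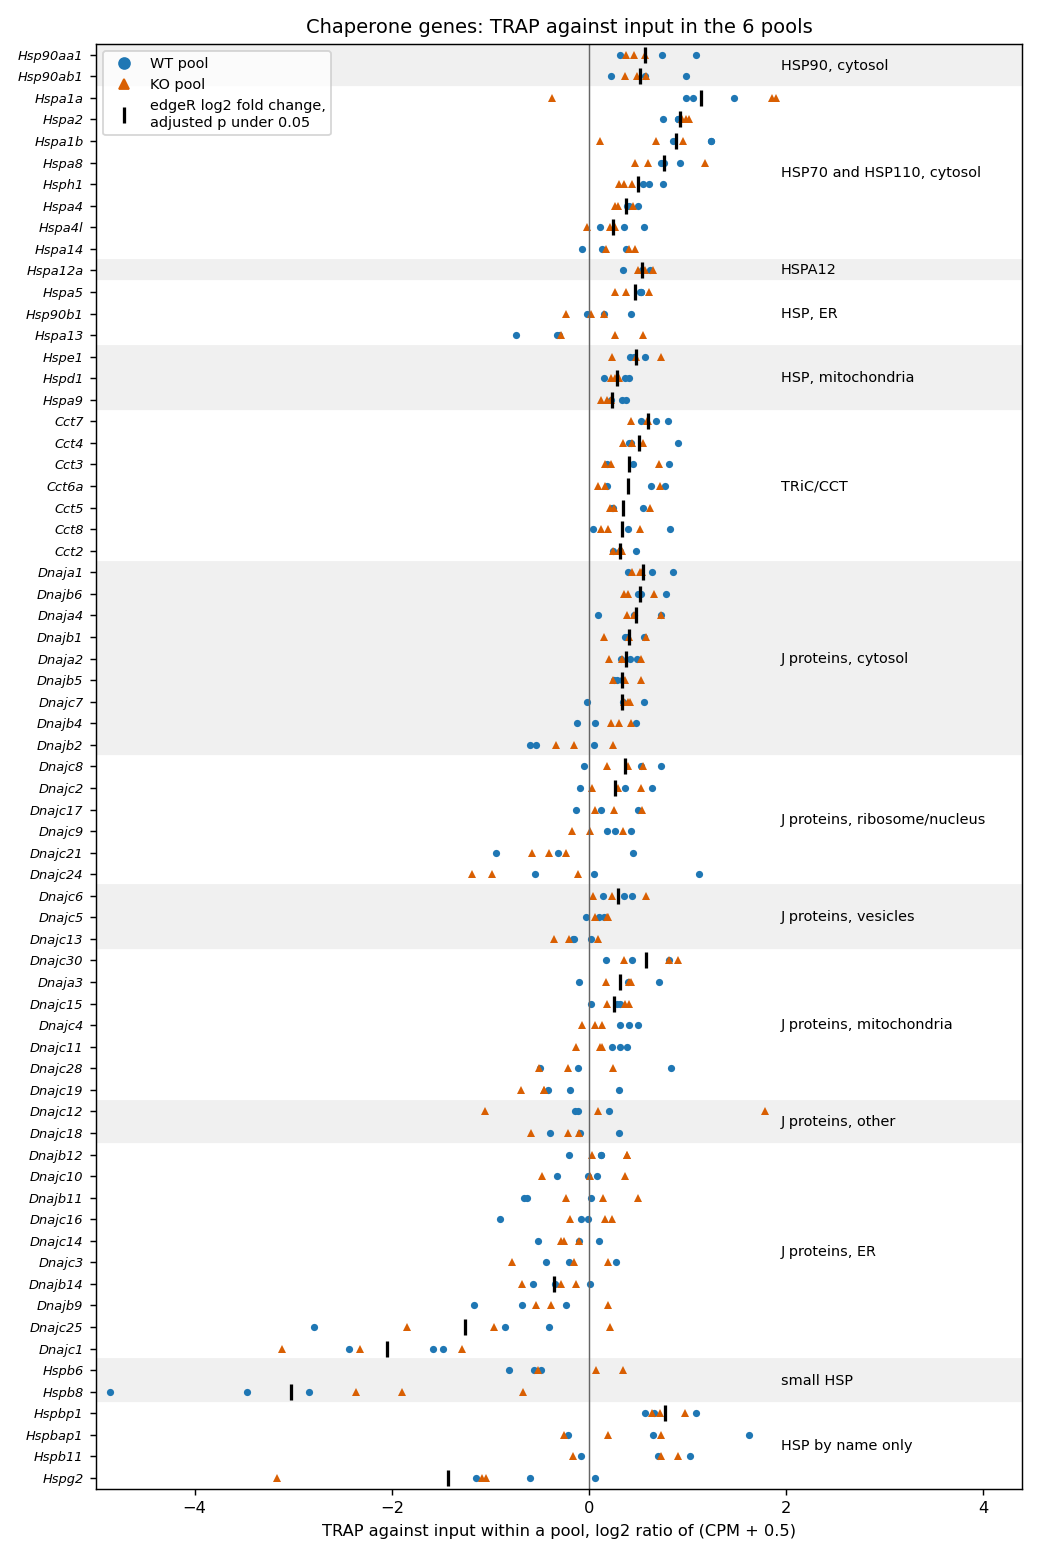
Log2 ratio of TRAP to input CPM (0.5 added to each) within each of the 6 pools for the 67 members, grouped by role on shaded bands. Blue circles are WT pools, orange triangles KO pools, and the black bar is the edgeR log2 fold change over both genotypes where the adjusted p was under 0.05. The cytosolic HSP70, HSP90 and TRiC/CCT points lie mostly right of 0, and Dnajc1 and Hspb8 lie left of 0 in all 6 pools.

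Both cytosolic HSP90 genes rose in TRAP. WT TRAP held Hsp90ab1 at 4462, 5237 and 4634 CPM, KO TRAP at 3842, 4625 and 4027 CPM, WT input at 3819, 2645 and 3121 CPM and KO input at 2734, 3579 and 2703 CPM. The TRAP libraries all lay above the inputs, the closest pair being KO TRAP 2 and WT input 1, with a log2 fold change of 0.52 ± 0.094 (SE), adjusted p = 0.000434. The levels of Hsp90aa1 were 1791, 1827 and 1912 CPM in WT TRAP, 1290, 1747 and 1466 CPM in KO TRAP, 1441, 857 and 1140 CPM in WT input and 941, 1344 and 986 CPM in KO input. Here KO TRAP 2 lay below the inputs WT 1 and KO 3, so the groups overlapped although TRAP was above input in each of the 6 pools, with a log2 fold change of 0.57 ± 0.14 (SE), adjusted p = 0.00753. Of the stretches of 75 bases within the exons of Hsp90aa1, 26.9% occur elsewhere in the genome with at most 2 mismatches. The share was 24.9% for Dnajb6, 20.8% for Hspd1 and 19.1% for Hspa8. How many reads of these genes were set aside as not unique was not tested, so their levels are less certain.

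The cytosolic HSP70 family and its HSP110 relatives rose in 7 of 8 genes, with a median log2 fold change of 0.63. WT TRAP held Hspa8 at 1410, 1361 and 1507 CPM, KO TRAP at 1360, 1520 and 1302 CPM, WT input at 741, 819.8 and 889.7 CPM and KO input at 982, 672 and 858 CPM. Hspa8, which folds new proteins and uncoats vesicles, had every TRAP library above every input, with a log2 fold change of 0.76 ± 0.076 (SE), adjusted p = 1.47e-08. The levels of Hspa2 were 238, 171 and 152 CPM in WT TRAP, 201, 185 and 194 CPM in KO TRAP, 127, 90.9 and 89.7 CPM in WT input and 99.4, 93.0 and 101 CPM in KO input. Hspa2, best known from male germ cells, was also higher in TRAP without overlap, with a log2 fold change of 0.92 ± 0.10 (SE), adjusted p = 1.29e-07, and its ratio within a pool ranged only from 0.75 to 1.01. The sign-flip test over the 6 pools gave p = 0.03125 for Hspa2 and Hspa8, which is the smallest p that this exact permutation test can give with 6 pools.
WT TRAP held Hsph1 at 681, 711 and 666 CPM, KO TRAP at 572, 580.1 and 512 CPM, WT input at 465, 422 and 435 CPM and KO input at 446, 429.5 and 413 CPM. Hsph1, the HSP110 that acts as exchange factor of HSP70, was higher in TRAP without overlap, with a log2 fold change of 0.50 ± 0.062 (SE), adjusted p = 2.91e-07. The other 2 HSP110 relatives were Hspa4, with a log2 fold change of 0.38 and an adjusted p of 1.92e-05, and Hspa4l, with 0.24 and 0.0172, which did not pass without the pool KO 2 or WT 3. Hspa14, a ribosome-associated HSP70, stood at 0.24 with an adjusted p of 0.159 and did not pass.

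The inducible HSP70 genes Hspa1a and Hspa1b were low in every library. The levels of Hspa1a were 6.76, 7.18 and 8.80 CPM in WT TRAP, 6.65, 5.88 and 11.6 CPM in KO TRAP, 3.18, 3.20 and 2.85 CPM in WT input and 1.41, 7.77 and 2.84 CPM in KO input. KO input 3 lay above all but 2 of the TRAP libraries, so the groups overlapped, and the log2 fold change was 1.14 ± 0.35 (SE), adjusted p = 0.0097. Without the KO pool 4 it was 0.88 with an adjusted p of 0.0947. WT TRAP held Hspa1b at 18.7, 9.34 and 15.2 CPM, KO TRAP at 6.93, 14.2 and 10.2 CPM, WT input at 10.1, 3.66 and 6.13 CPM and KO input at 6.36, 8.66 and 5.03 CPM. The lowest TRAP library, KO 2, lay under 2 inputs, and the log2 fold change was 0.89 ± 0.27 (SE), adjusted p = 0.0101. The Hspa1a and Hspa1b genes lie 9960 bases apart on chromosome 17 and share 28.7 and 25.5% of their 75-base stretches with another place, so counts for each are uncertain. Hspa12a, a divergent HSP70 relative, rose in TRAP with a log2 fold change of 0.54 ± 0.064 (SE), adjusted p = 1.59e-07.

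All 7 counted subunits of TRiC/CCT rose in TRAP, and their log2 fold changes lay close together, from 0.31 for Cct2 to 0.60 for Cct7, with a median of 0.40. The levels of Cct7 were 378, 419 and 355 CPM in WT TRAP, 353, 383 and 366 CPM in KO TRAP, 236, 239.9 and 245 CPM in WT input and 262, 253 and 244 CPM in KO input. The TRAP libraries of Cct7 all lay above its inputs, and the difference was a log2 fold change of 0.60 ± 0.066 (SE), adjusted p = 3.64e-08. The same separation held for Cct2, Cct3, Cct4 and Cct5, whereas Cct6a and Cct8 overlapped. WT TRAP held Cct6a at 168, 194 and 193 CPM, KO TRAP at 172, 189 and 168 CPM, WT input at 98.0, 170 and 125 CPM and KO input at 161, 114 and 150.2 CPM. The input WT 2 of Cct6a reached into the TRAP range, with a log2 fold change of 0.40 ± 0.11 (SE), adjusted p = 0.00563. The log2 fold changes of Cct3, Cct4, Cct5 and Cct8 were 0.41, 0.51, 0.35 and 0.33. The non-member Tcp1, the subunit left out by its symbol, had a log2 fold change of 0.33 and an adjusted p of 0.00142. Without the pools WT 1 and KO 3, Cct8 stood at 0.21 with an adjusted p of 0.0622.

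**Figure D2:**
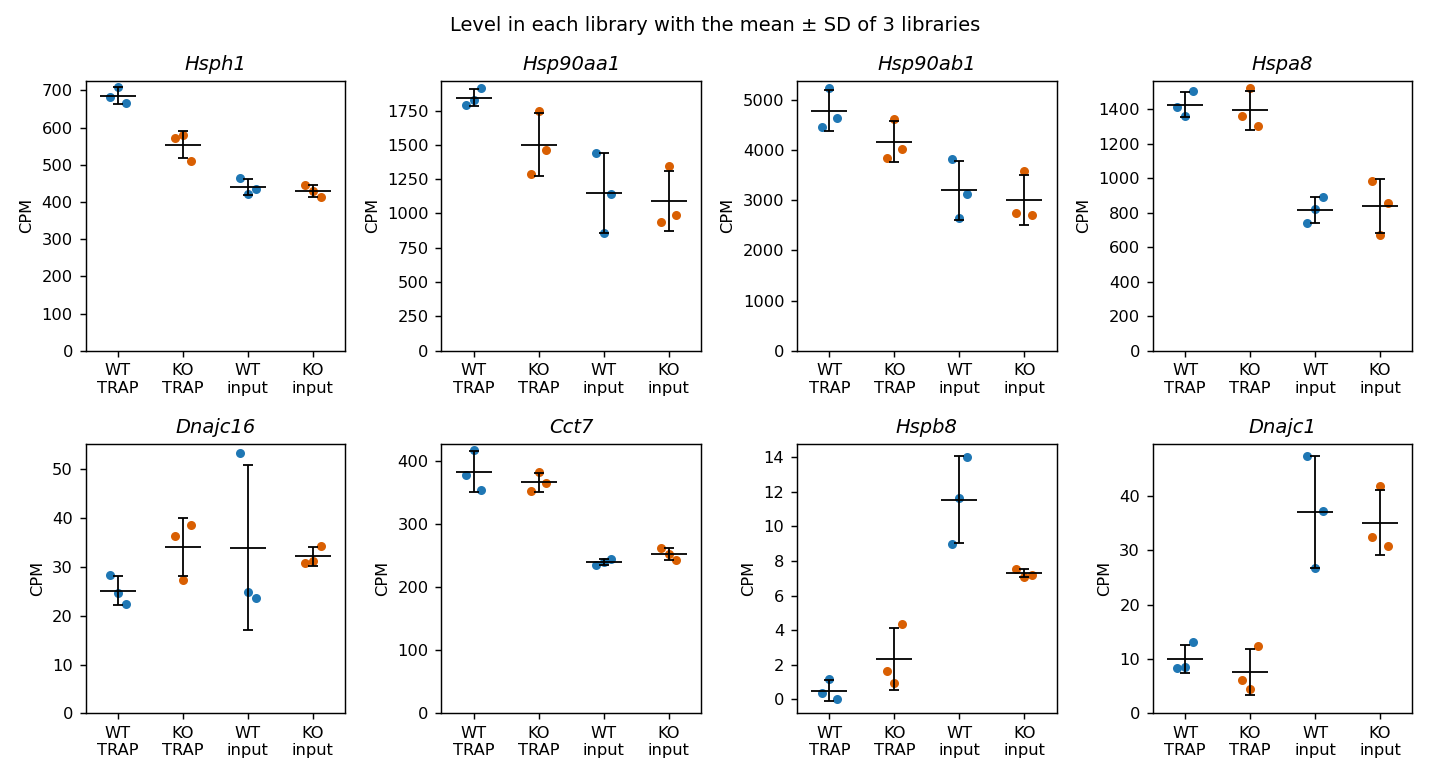
CPM of 8 members in each library (blue points WT, orange points KO), with the mean (long bar) ± SD of the 3 libraries of a group (short bars), on axes that start near 0. Hsph1, Hspa8 and Cct7 show every TRAP library above every input, Hspb8 and Dnajc1 show the reverse, and Hsph1 and Hsp90aa1 show the KO TRAP libraries below the WT TRAP libraries.

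All 3 mitochondrial HSP genes rose in TRAP. Hspd1, the mitochondrial chaperonin, had a log2 fold change of 0.28 and an adjusted p of 0.00524, its co-chaperonin Hspe1 0.48 and 0.000362, and mitochondrial HSP70, Hspa9, 0.24 and 0.00804. The levels of Hspe1 were 79.0, 85.3 and 95.4 CPM in WT TRAP, 95.9, 87.6 and 73.7 CPM in KO TRAP, 57.5, 63.7 and 64.1 CPM in WT input and 68.6, 52.4 and 62.8 CPM in KO input. All TRAP libraries of Hspe1 lay above its inputs. Hspd1 showed the same separation and Hspa9 did not. Hspd1 and Hspe1 overlap by 112 bases on opposite strands of chromosome 1, and the strand setting used for counting is not stated in the sources used here. Of 7 mitochondrial J proteins 3 rose, where 19.6% of all genes tested were higher. They were Dnajc30 (0.58, adjusted p = 0.00213), Dnaja3 (0.31, adjusted p = 0.0152) and Dnajc15 (0.26, adjusted p = 0.0472), and the others did not pass. The call of Dnajc15 was lost in 10 of 13 alternative fits and that of Dnaja3 in 3, those without the pools WT 1 or WT 3 or without WT 1 and KO 3 together.

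Of 9 cytosolic J proteins, which bring clients to HSP70, 7 rose, with a median log2 fold change of 0.38 over the 9. WT TRAP held Dnaja1 at 257, 242 and 270 CPM, KO TRAP at 216, 243 and 209.7 CPM, WT input at 142, 184 and 173 CPM and KO input at 159.5, 169 and 144 CPM. The 6 TRAP libraries of Dnaja1, a J protein of the DnaJA class, lay above its 6 inputs, with a log2 fold change of 0.55 ± 0.079 (SE), adjusted p = 2.28e-06. Dnajb6, known to hold back aggregation of polyglutamine proteins, gave a log2 fold change of 0.52 ± 0.087 (SE), adjusted p = 1.91e-05. The stress-inducible Dnajb1 stood at 0.40 with an adjusted p of 0.00297. Dnajb4 (0.22, adjusted p = 0.0678) and Dnajb2 (-0.22, adjusted p = 0.33) did not pass. Among 6 J proteins of the ribosome and nucleus, Dnajc8 (0.37, adjusted p = 0.00135) and Dnajc2 (0.27, adjusted p = 0.0476) rose and 4 did not pass, where 19.6% of all genes tested were higher. The call of Dnajc2 was lost in 7 of 13 alternative fits.

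Of the vesicle-linked J proteins only Dnajc6 passed, where 19.6% of all genes tested were higher. The levels of Dnajc6 were 392, 388 and 393 CPM in WT TRAP, 344, 432 and 419.5 CPM in KO TRAP, 306, 350.4 and 290.2 CPM in WT input and 334, 289 and 357 CPM in KO input. Its TRAP and input libraries overlapped, since KO TRAP 2 lay below the inputs WT 2 and KO 4, with a log2 fold change of 0.29 ± 0.074 (SE), adjusted p = 0.00224. WT TRAP held Dnajc5 at 405, 383 and 402 CPM, KO TRAP at 399, 374 and 389 CPM, WT input at 363, 390.4 and 374 CPM and KO input at 347, 329 and 373 CPM. Dnajc5, which guards the release machinery of the synapse, had a log2 fold change of 0.10 ± 0.064 (SE), adjusted p = 0.196, with the inputs WT 2 and WT 3 inside the TRAP range. Dnajc13, an endosomal J protein, stood at -0.14 with an adjusted p of 0.239.

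The ER chaperones held members of both directions. Hspa5, the HSP70 of the ER lumen, was the single one of 3 ER HSP genes that rose, where 19.6% of all genes tested were higher. The levels of Hspa5 were 130.4, 96.7 and 113 CPM in WT TRAP, 117, 107 and 108 CPM in KO TRAP, 91.0, 66.9 and 78.6 CPM in WT input and 76.6, 82.1 and 89.2 CPM in KO input. The Hspa5 groups did not overlap, with a log2 fold change of 0.47 ± 0.097 (SE), adjusted p = 0.000303. Hsp90b1 (0.08, adjusted p = 0.661) and Hspa13, an HSP70 relative of microsomes (-0.16, adjusted p = 0.557), did not pass. None of the 10 ER J proteins rose and 3 fell, where 22.5% of all genes tested were lower, with 9 of 10 log2 fold changes below 0 and a median of -0.21. WT TRAP held Dnajc1 at 8.36, 8.62 and 13.1 CPM, KO TRAP at 6.10, 4.41 and 12.4 CPM, WT input at 47.4, 26.7 and 37.2 CPM and KO input at 32.5, 42.0 and 30.8 CPM. Dnajc1, a membrane J protein that works with Hspa5, was lower in all TRAP libraries, with a log2 fold change of -2.05 ± 0.21 (SE), adjusted p = 2.34e-08. Its gene overlaps Mllt10 on the other strand, 1 of 13 members that overlap such a gene with a mean count of 10 or more. Dnajb14 fell by 0.36 (adjusted p = 0.008) and Dnajc25 by 1.25 (adjusted p = 0.046), the latter on 2 to 23 counts a library. The call of Dnajc25 was lost in 7 of 13 alternative fits, and that of Dnajb14 in 2, without the pool KO 4 or WT 2. Dnajb9, an ER J protein that acts on misfolded clients, stood at -0.48 with an adjusted p of 0.0534. The difference between the ER and the cytosolic J proteins was not tested.

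Of the small HSPs, Hspb8, a partner of Bag3 in clearing aggregates, fell furthest of all members. The raw counts of Hspb8 were 2, 5 and 0 in WT TRAP, 6, 4 and 18 in KO TRAP, 31, 51 and 64 in WT input and 32, 32 and 33 in KO input. The 0 in WT TRAP 3 allows up to 0.7995 CPM, a limit that covers counting error only. The groups did not overlap, and the log2 fold change was -3.02 ± 0.42 (SE), adjusted p = 1.64e-06. Hspb6 stood at -0.35 with an adjusted p of 0.45. Hspbp1 was the highest of the members that are chaperones by name only, with a log2 fold change of 0.78 ± 0.11 (SE), adjusted p = 2.75e-06, and Hspg2 had a log2 fold change of -1.43, adjusted p = 0.0386, on 1 to 38 counts a library, a call that was lost in 4 of 13 alternative fits, those without the pools KO 2, KO 4 or WT 1 or without WT 1 and KO 3 together.

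The ratio went with the level. Over the 67 members the Spearman correlation of mean CPM per kilobase with the log2 fold change of TRAP to input was 0.583, against 0.45 over all 13214 genes tested, given as a description across genes that share the same 12 libraries. The level includes the TRAP counts that also enter the ratio, so the correlation holds a part that follows from shared values. With the level from the inputs alone, which enter the ratio from the other side, it was 0.538 over the members and 0.337 over all genes. Of the 34 members with the higher levels (19.5 to 1262 CPM per kilobase), 32 rose and 0 fell (94.1 and 0%), with a median log2 fold change of 0.40, and of the 3035 genes tested in that range of levels 51.5% were higher and 11.9% lower, with a median of 0.26. Of the 33 with the lower levels (0.179 to 18.7), 3 rose and 5 fell (9.09 and 15.2%), with a median of -0.14, against 9.88 and 25.7% of 10016 genes in that range, with a median of -0.11. Lower members also carry fewer counts, and the part of counting noise in this pattern was not tested.

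**Figure D3:**
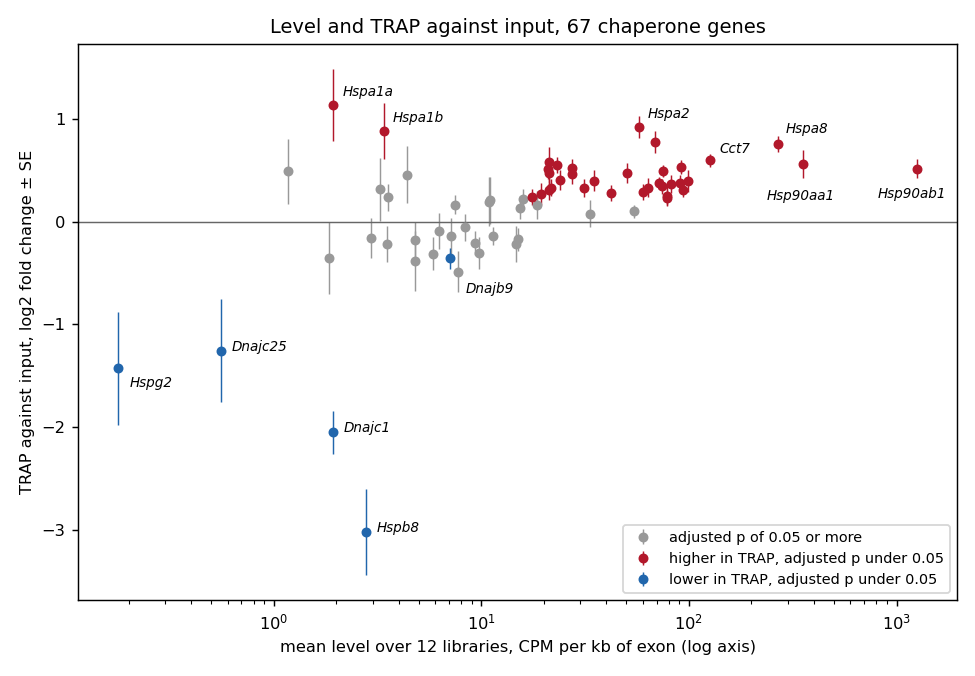
Mean level over the 12 libraries in CPM per kilobase of exon (log axis) against the log2 fold change of TRAP to input ± SE (edgeR, 12 libraries) for the 67 members. Red points were higher and blue points lower at an adjusted p under 0.05, and the members above about 19 CPM per kilobase are nearly all red.

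Within single genotypes the same comparison called fewer members. In WT 23 of 66 members tested were higher (34.8%, against 11.8% of genes) and 2 were lower (3.03%, against 13.1%). In KO 25 of 67 were higher (37.3%, against 13.2%) and 5 were lower (7.46%, against 15.9%). The number of members higher fell whenever a single pool was left out. The share over all genes fell too, except without WT 1, where 22 members were higher in WT and 12% of all genes. The number higher in WT was 15 without WT 2 (6.23% of all genes) and 7 without WT 3 (3.82%). That in KO was 10 without KO 4 (5.77%), the pool whose input was high in ependymal and choroid markers, whose part in this was not tested. The members lower in KO were Dnajc1, Hspb8, Hspg2, Dnajb14 and Dnajc21, of which 1, Dnajc1, was left without KO 2, and 3 without KO 3 or without KO 4. Over both genotypes the 5 members lower in TRAP were 3 without WT 1 and 2, Dnajc1 and Hspb8, without KO 4.

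Pathway lists chosen with the members held members and other genes. Of 20 genes of the cytosolic heat shock response 11 were members already counted above, and all 11 were higher in TRAP. Of the 9 others 7 were higher and 2 lower (77.8 and 22.2%, against 19.6 and 22.5% of all genes tested), with a median of 0.31. Those lower were Hspb1, on 1 to 4 counts a library in TRAP and 7 to 16 in input, and Bag3, a partner of small HSPs, at -0.92, and those higher included the non-members Stip1 (0.66), which bridges HSP70 and HSP90, and Hsf1 (0.39, adjusted p = 0.0234), the factor that drives the response. Of 19 genes of the ER stress response 5 were members, of which Hspa5 alone was higher. Of the 14 others 2 were higher (Pdia6 and Hyou1) and 3 lower (Ddit3, Atf6 and Atf4), or 14.3 and 21.4%, shares near those of all genes, with a median of 0.08. Of 39 co-chaperones and related genes without a matching symbol 19 were higher (48.7%), 6 lower (15.4%) and 14 did not pass, with a median of 0.26. The lowest of these were Serpinh1, a collagen chaperone with 0 counts in 4 TRAP libraries, at most 3 in the others and 1 to 23 in input, and Cryab, a small HSP that is abundant in glia (-2.24). That list also holds Hyou1 and, apart from Hspb1, the other heat shock genes that are no members, so the lists are not independent.

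The second comparison asked which chaperone mRNAs on tagged ribosomes differed between the libraries labelled FosB KO and WT. None of 64 members tested passed in TRAP (0.0682% of 11727 genes did), by edgeR or by DESeq2, and Hspg2, Dnajc25 and Hspb8 were too low to be tested. At an unadjusted p under 0.05 there were 4 members by edgeR (6.25%, against 6.05% of genes) and 3 by DESeq2 (against 4.78% of genes). The median log2 fold change of KO to WT was -0.04 over the members and -0.002 over all genes, and 25 of 64 were above 0 (39.1%, against 49.5% of genes). With library totals in place of TMM scaling, which moved the median over all genes to 0.0289, 30 were above 0.

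The lowest unadjusted p belonged to Hsph1, whose values are given above. Its 3 KO TRAP libraries all lay below its 3 WT TRAP libraries, while KO and WT overlapped in input, and the log2 fold change in TRAP was -0.29 ± 0.084 (SE), unadjusted p = 0.00196 and adjusted p = 0.384 in edgeR. The log2 fold change lay between -0.31 and -0.24 in the 13 alternative fits. Hsp90aa1 showed the same order, with KO TRAP 3 closest to WT and KO TRAP 2 lowest, and gave -0.28 ± 0.090 (SE), unadjusted p = 0.00476 and adjusted p = 0.558. Hsp90ab1 overlapped, with KO TRAP 3 above WT TRAP 1, and gave -0.18 ± 0.077 (SE), unadjusted p = 0.0268 and adjusted p = 0.784. None of the 3 passed the adjusted threshold. Without KO TRAP 2, the library high in GABA neuron markers and lowest in both HSP90 genes, the log2 fold changes were -0.31 for Hsph1, -0.18 for Hsp90aa1 and -0.13 for Hsp90ab1 (adjusted p = 0.652, 0.975 and 0.975), and 1 member in place of 4 had an unadjusted p under 0.05 (5.11% of all genes). Without KO TRAP 3 the value of Hsp90aa1 was -0.39 (adjusted p = 0.167). The members with an unadjusted p under 0.05 numbered 5 without KO TRAP 3 (6.24% of all genes), 2 without KO TRAP 4 (3.58%), and 7, 6 and 3 without WT TRAP 1, 2 and 3 (8.25, 6.43 and 5.72%). The part of these markers in the values was not tested.
The levels of Dnajc16 were 28.3, 24.7 and 22.4 CPM in WT TRAP, 36.3, 27.4 and 38.6 CPM in KO TRAP, 53.5, 24.9 and 23.6 CPM in WT input and 30.9, 31.3 and 34.3 CPM in KO input. In TRAP the ER J protein Dnajc16 had a log2 fold change of 0.45 ± 0.20 (SE), unadjusted p = 0.0354 and adjusted p = 0.798, with KO TRAP 3 inside the WT range. Libraries of KO lay wholly below WT in 5 members (7.81%, against 6.87% of genes), namely Hsph1, Hsp90aa1, Hspa4, Dnajc2 and Dnajc24, and wholly above WT in 0 (against 5.22%). With 3 against 3 libraries an exact permutation test cannot give a p below 0.10.

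Further values in the same range were Dnaja1 (-0.19, adjusted p = 0.826), Hspa4 (-0.15, adjusted p = 0.849) and Dnajc24, a J protein needed for diphthamide (-0.75, adjusted p = 0.864), on the lower side. On the higher side were Hspb6 (0.91, adjusted p = 0.868), Hspa13 (0.39, adjusted p = 0.885), Dnajb12, an ER membrane J protein (0.21, adjusted p = 0.894), Hspb11 (0.38, adjusted p = 0.923) and Cct5 (0.10, adjusted p = 0.93). The abundant Hspa8 stood at -0.02 ± 0.081 (SE) and Cct7 at -0.05 ± 0.090 (SE). Of 19 genes of the heat shock response tested, 0 passed and 3 were above 0 (15.8%, against 49.5% of all genes), with a median of -0.15. The count below 0 was 16, or 14 with library totals, which moved the median over all genes to 0.0289. The list holds 11 members, and of its 8 other genes tested 1 was above 0. An unadjusted p under 0.05 belonged to 3 members already given, Hsph1, Hsp90aa1 and Hsp90ab1, and to 1 of the 8 others (12.5%, against 6.05% of all genes), the HSP90 activator Ahsa1 (-0.30, adjusted p = 0.74). The list of general neuron markers had 8 of 9 genes below 0 as well, with a median of -0.11 and a summed level of 11312 to 11929 CPM in WT TRAP and 9713 to 10802 CPM in KO TRAP, and its part in these values was not tested. Of 19 genes of the ER stress response 10 were above 0 and 9 below, with a median of 0.01, and of 38 co-chaperones tested 12 were above 0 (31.6%) and 26 below. No gene of these lists passed.

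**Figure D4:**
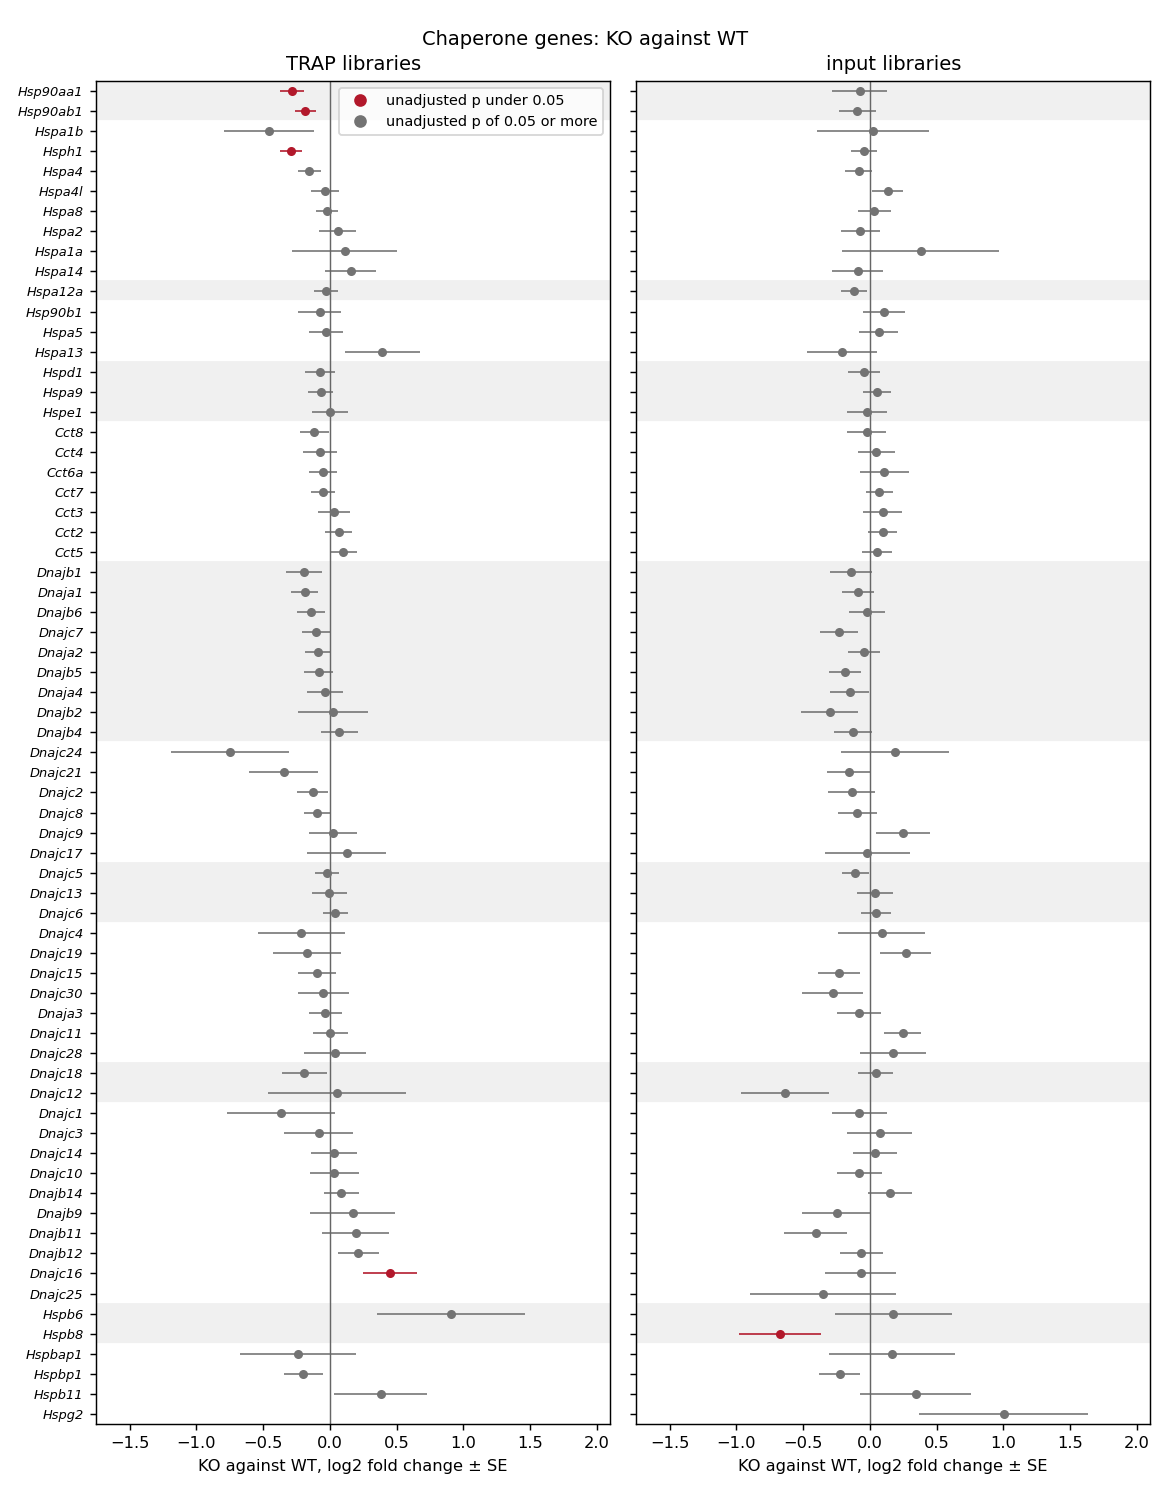
Log2 fold change of KO to WT ± SE (edgeR, 3 against 3 libraries) for members tested in TRAP (left, 64) and input (right, 67), in role order on shaded bands. Red marks an unadjusted p under 0.05, which is reached by Hsph1, Hsp90aa1, Hsp90ab1 and Dnajc16 in TRAP and by Hspb8 in input, and no member passed after adjustment.

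In input none of 67 members passed either (0.0312% of 12816 genes did), by edgeR or by DESeq2. An unadjusted p under 0.05 was reached by 1 member in edgeR (1.49%, against 2.89% of genes) and by 0 in DESeq2 (against 2.31% of genes). WT TRAP held Hspb8 at 0.356, 1.20 and 0 CPM, KO TRAP at 1.66, 0.979 and 4.37 CPM, WT input at 8.96, 11.7 and 14.0 CPM and KO input at 7.54, 7.10 and 7.22 CPM. In input the 3 KO libraries of Hspb8 lay below the 3 WT libraries, with a log2 fold change of -0.67 ± 0.31 (SE), unadjusted p = 0.0432 and adjusted p = 1 in edgeR. Libraries of KO lay wholly above WT in 2 members (2.99%, against 4.36% of genes), Dnajc11 and Dnajc19, and wholly below in 3 (4.48%, against 4.03%), Hspb8, Dnajc12 and Hspa12a. The mitochondrial J proteins Dnajc11 and Dnajc19 had log2 fold changes of 0.25 and 0.27, Dnajc12, a co-chaperone of aromatic amino acid hydroxylases, -0.64, and Hspa12a -0.12. The values of Hspg2 (1.00), Dnajc9, a histone chaperone (0.25), Hspa4l (0.13), Dnajb14 (0.15), Dnajb11 (-0.40), Dnajc7 (-0.23), Dnajb5 (-0.19) and Dnajc15 (-0.23) lay within overlapping groups, each with an adjusted p of 1. Hsph1 and Hsp90aa1 had log2 fold changes of -0.04 ± 0.098 (SE) and -0.08 ± 0.20 (SE) in input.

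The third comparison asked whether the ratio of TRAP to input differed between the genotypes. No member of 67 passed (0.00757% of 13214 genes did). An unadjusted p under 0.05 was reached by 2 members in DESeq2 (against 2.82% of genes) and by 1 in edgeR (1.49%, against 2.71% of genes). The member in edgeR was Hspb8, with a difference of 2.81 ± 0.86 (SE) on the log2 scale, unadjusted p = 0.00306 and adjusted p = 1, its ratio being -4.42 in WT and -1.62 in KO. It rests on 0 to 5 counts in the WT TRAP libraries and on 18 counts in KO TRAP 4, and the difference ranged from 1.96 without KO 4 to 4.00 without WT 2. For Hsph1 the difference was -0.25 ± 0.12 (SE), unadjusted p = 0.0535, so that the difference in TRAP was not shown to be unlike that in input. The ratio of Hspa8 was 0.79 in WT and 0.73 in KO, that of Cct7 0.67 and 0.53, and that of Dnajc1 -1.91 and -2.20.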

How the data were processed

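RNA-seq was measured in 12 mouse libraries, TRAP and input from 6 pools. Before they were deposited, the authors made the files as raw counts of reads per gene (Gencode vM1 identifiers) with htseq. The submitters' processing notes name TopHat, DESeq2 and the genome build mm9, and the strand setting of the counting is not given in the sources used here. Alignments that were not unique (3438372 to 6518589 a library) and unique reads that met no gene (20.6 to 27.1% of the unique reads) stayed out of library sizes.

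Counts were tested with edgeR 4.0.16 (R 4.3.3) by the quasi-likelihood F test after filterByExpr and TMM scaling, without a block, with p-values adjusted by Benjamini-Hochberg over all genes tested and a threshold of 0.05. SE is the log2 fold change divided by the square root of F. DESeq2 1.42.0, the pool as block, other scalings, no filter and leaving out pools were alternatives. Scripts were tested on simulated data. Within a pool, ratios of CPM + 0.5 were tested by an exact two-sided sign-flip permutation test (scipy 1.17.1). Levels per length used the union of exons. Stretches of 75 bases, taken every 25 within single exons, were aligned to mm9 with minimap2 2.31.

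The members and the lists were chosen with earlier results of these data known. Members were named where they led a comparison between genotypes (6 smallest p in each direction), led the TRAP ratio without overlap (8 a direction), belonged to the HSP70, HSP90, ER, mitochondrial, TRiC/CCT or vesicle groups, or had the highest level of another group. Others were named after their values were seen. TRAP and input of a number came from the same mice, and their deviations from the group means correlated by 0.0618 to 0.125 in the 6 pools.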

Additional observations from a re-analysis of the deposited data

How the results depend on the processing

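No called difference changed direction under any alternative tried. With library totals in place of TMM the members lower in TRAP in KO numbered 3 and the median log2 fold change was 0.3341, against 5 and 0.2823 in the reported fit. That scaling also moved the median over all genes, from 0.0100 to 0.0658. With DESeq2 the members lower in TRAP in KO numbered 3. Leaving out 1 pool at a time moved the median of KO to WT from -0.0702 to -0.0103 in TRAP and from -0.0578 to -0.0083 in input. It moved the members higher in TRAP over both genotypes from 32 to 34, with 16.8 to 20% of all genes higher, and those lower from 2 to 5. The members higher ran from 7 to 22 in WT (3.82 to 12% of all genes) and from 10 to 21 in KO (5.77 to 11.3%). Those lower in KO ran from 1 to 3, and the median in KO from 0.2256 to 0.3081. No member passed between genotypes in any of these fits. Leaving out the pools WT 1 and KO 3 together, an alternative chosen after seeing the data, left 3 members lower in TRAP. Fits with fewer libraries have less power by construction, and the cause of the other changes was not tested.

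With the replicate number as block, which joins KO and WT libraries of different mice, the median of KO to WT in input was -0.0088. With the pool as block, which joins TRAP and input of the same mice, the calls of TRAP to input were 38, 28 and 34 over both genotypes, in WT and in KO, against 40, 25 and 30 without it. The block lost Dnajc15 and Dnajc25 over both genotypes and Dnaja4 in WT. Over both genotypes, Dnajc2 and Dnajc15 no longer passed with relative log expression scaling or without genes of the mitochondrial genome, Dnajc2 with DESeq2, and Dnajc15 and Dnajc25 without a filter. Dnajb9 passed as lower in the first 3 of these. At 3416030 to 5614089 counts a library, members with a few counts in TRAP, such as Hspb8, Dnajc25 and Hspg2, are measured too coarsely to compare between genotypes.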
